A study of Saccharomyces cerevisiae with 36 samples.

Results

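Genes of the UTP, NOP and RRP families encode proteins that build ribosomes in the nucleolus of budding yeast, and their mRNA levels and ribosome footprints were followed here in cells kept in an iron chelator. The genes were taken by name: every feature whose standard name is UTP, NOP or RRP and a number was included, whatever its values. This gave 53 of the 7127 features counted, 18 UTP, 17 NOP and 18 RRP genes, spread over 14 chromosomes and each with a single coding exon. The mutant carries deletions of CTH1 and CTH2 (cth1Δcth2Δ), which encode RNA-binding proteins that act on mRNAs with AU-rich elements. The wild type is W303a. Both strains grew at 30 °C in synthetic complete medium and were sampled after 0, 3 and 6 h with 100 µM BPS, a chelator of ferrous iron, the 0 h cultures being iron-sufficient. From each lysate, poly(A) RNA fragments (RNA-seq) and fragments protected by single ribosomes (Ribo-seq) were sequenced, so that strain, time and assay define 12 groups of 3 biological replicates. No culture was sampled at 3 or 6 h without BPS, so chelation and time in culture cannot be told apart. The number of independent clones behind the mutant strain is not given in the sources used here.

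A growing yeast cell spends much of its transcription and translation on ribosomes. RNA polymerase I makes a long precursor rRNA, the small-subunit processome folds and cleaves its 5′ part, small nucleolar RNPs guide its chemical modification, further factors assemble the large subunit, and the exosome trims or removes the RNA that is left over. The genes for these factors form a regulon that is known to be transcribed together in growing cells, under the TOR and PKA pathways and through a pair of promoter elements named PAC and RRPE.

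Those promoter elements are shown first, because they are what the genes visibly share outside their names. The windows below are the 250 bases before the start codon, read from the RefSeq genome of build R64, 5′ to 3′ on the strand of the gene. Capitals mark a PAC element (GCGATGAG) or its core (GATGAG, which lies inside it), and the RRPE element (AAAAATTT), each searched on both strands. UTP21, NOP56 and NOP10 are shown as genes with both elements that fell in every 6 h comparison. NOP8 has both elements and fell in none, RRP43 has a PAC core alone and fell in none, and UTP22 has neither element and fell in all 4.
UTP21: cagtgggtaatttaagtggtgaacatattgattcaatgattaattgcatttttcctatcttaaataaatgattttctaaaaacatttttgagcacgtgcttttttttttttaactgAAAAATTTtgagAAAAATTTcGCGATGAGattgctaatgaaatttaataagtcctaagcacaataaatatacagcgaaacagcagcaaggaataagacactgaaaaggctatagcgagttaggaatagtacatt
NOP56: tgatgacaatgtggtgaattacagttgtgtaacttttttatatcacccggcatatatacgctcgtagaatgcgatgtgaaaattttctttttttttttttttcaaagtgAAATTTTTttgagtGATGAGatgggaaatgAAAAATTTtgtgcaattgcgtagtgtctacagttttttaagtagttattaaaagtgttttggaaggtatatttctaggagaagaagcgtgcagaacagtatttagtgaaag
NOP10: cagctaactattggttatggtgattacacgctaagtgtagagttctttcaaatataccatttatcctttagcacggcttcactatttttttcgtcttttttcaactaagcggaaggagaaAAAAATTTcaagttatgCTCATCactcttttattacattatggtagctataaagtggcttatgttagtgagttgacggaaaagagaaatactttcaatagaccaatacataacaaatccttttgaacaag
NOP8: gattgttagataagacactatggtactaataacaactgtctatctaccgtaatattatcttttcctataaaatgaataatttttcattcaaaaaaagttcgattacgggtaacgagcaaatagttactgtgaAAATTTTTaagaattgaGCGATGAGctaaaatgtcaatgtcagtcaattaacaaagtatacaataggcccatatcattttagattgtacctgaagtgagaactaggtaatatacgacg
RRP43: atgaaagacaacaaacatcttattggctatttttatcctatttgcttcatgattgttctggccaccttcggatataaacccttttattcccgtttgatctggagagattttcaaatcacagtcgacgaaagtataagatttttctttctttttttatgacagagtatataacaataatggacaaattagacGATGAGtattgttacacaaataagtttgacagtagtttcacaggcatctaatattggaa
UTP22: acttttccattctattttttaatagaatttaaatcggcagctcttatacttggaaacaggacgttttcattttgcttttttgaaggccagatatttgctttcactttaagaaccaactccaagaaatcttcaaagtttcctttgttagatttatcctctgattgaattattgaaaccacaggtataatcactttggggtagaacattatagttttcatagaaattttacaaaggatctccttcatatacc
The UTP21 window lies at chrXII:937234-937483 (minus strand) and that of NOP56 at chrXII:545847-546096 (plus strand). The NOP10 window lies at chrVIII:241414-241663 (plus strand) and that of NOP8 at chrXV:52848-53097 (plus strand). For RRP43 the window is chrIII:193019-193268 (minus strand), and for UTP22 it is chrVII:662108-662357 (plus strand).

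A full PAC element was found before 23 of the 53 genes (43.4%), against 230 of 5983 protein-coding genes (3.84%). The PAC core stood before 43 of the 53 (81.1%), against 17.0% of all genes, and RRPE before 39 (73.6%), against 13.4%. Core and RRPE occurred together before 32 of the 53 genes (60.4%) and before 299 of all genes (5.0%). The median match lay 114 bases upstream of the start codon for the PAC core and 127 bases for RRPE. By role, the core was present in 12 of 13 genes of the large-subunit path, 14 of 15 of the small-subunit path and all 5 snoRNP genes. It was present in 3 of 7 exosome genes and in neither gene placed in UtpC. A match is a run of letters and was not tested for binding of any factor.

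**Figure D1:**
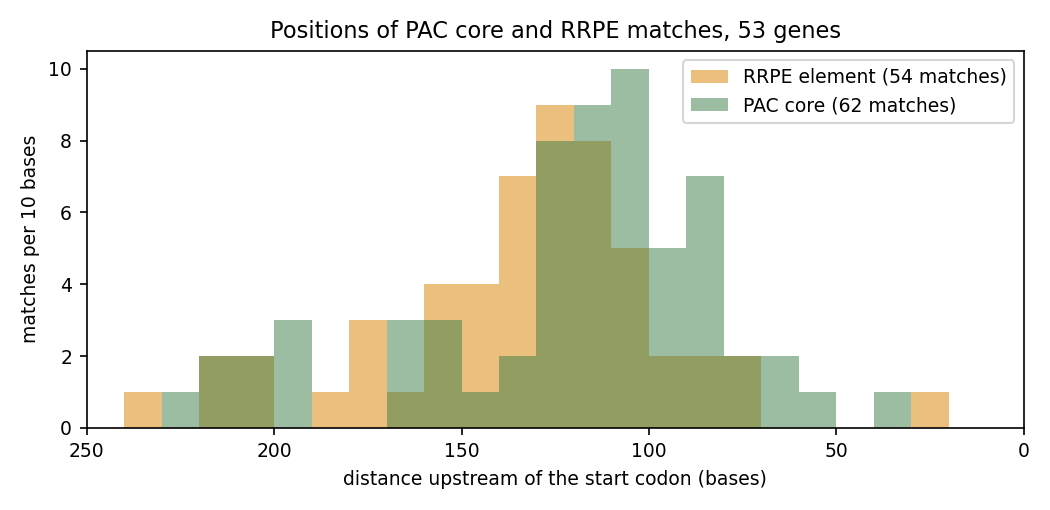
Distance of each PAC core (62 matches) and RRPE (54 matches) from the start codon, in bases, before the 53 genes, counted in steps of 10 bases on the y axis. Both elements crowd around the medians of 114 and 127 bases, with few matches close to the start codon or near the far end of the window.

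RNA-seq libraries held 113262 to 6571727 counts and Ribo-seq libraries 607936 to 28491058. All 53 genes passed the filter on low counts in both assays. In the wild type at 6 h, RNA-seq replicate 1 had only 363 reads on the 53 genes together and replicate 2 had 1400, against 23532 in replicate 3. The wild-type 3 h culture of replicate 2 stood apart in both assays: 51 of the 53 genes had their lowest RNA level of the group there, and all 53 their lowest footprint level. RNA-seq replicate 3 at 0 h held the lowest level of 38 genes in the mutant and of 38 in the wild type. CTH1 had 0 to 6 RNA reads per mutant library, and CTH2 (listed as TIS11) 0 to 11.1 CPM (counts scaled to a common library size, with TMM factors), against up to 387.2 CPM in the wild type. These are bulk samples of whole cultures, so less RNA per cell and a smaller number of cells that make it cannot be told apart.

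At 0 h most of the genes were expressed above the median feature. Per kilobase of coding length, the median RNA level of the 53 genes at 0 h was 93.2 CPM in the mutant and 102.7 CPM in the wild type, against 41.2 and 40.04 CPM for all features tested. In the mutant 49 of the 53 lay above the all-feature median, and in the wild type 51. The genes spanned a wide range. NOP10, a very short protein of the box H/ACA snoRNPs that guide pseudouridylation, led with 4228 ± 1471 CPM per kb in the mutant and 6124 ± 448.4 in the wild type (SD, n = 3 each). NOP1, the methyltransferase of the box C/D snoRNPs (fibrillarin), followed with 993.9 ± 480.5 CPM per kb in the mutant and 796.4 ± 195.8 in the wild type, well below NOP10 in each strain. RRP17, a 5′ exonuclease of the large-subunit path, was lowest, at 12.9 ± 7.74 CPM per kb in the mutant and 10.8 ± 9.26 in the wild type.

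Translational efficiency, the log2 ratio of footprint to RNA level, was above that of most genes at 0 h. Its median over the 53 genes was 0.22 in the mutant and 0.11 in the wild type, against -0.51 and -0.55 for all features, and 10 and 8 of the 53 lay below those all-feature medians. NOP10 stood lowest, at -1.94 ± 0.65 in the mutant and -2.56 ± 0.27 in the wild type (SD, n = 3 each). Scaled by total counts the wild-type median was 0.35, against -0.31 for all features.

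After 6 h in BPS these genes were lower together in both strains. They took 0.475 ± 0.118% of RNA-seq counts at 6 h in the mutant, against 0.935 ± 0.215% at 0 h, and 0.478 ± 0.166% at 6 h in the wild type, against 0.991 ± 0.167% at 0 h (SD, n = 3 each). In footprints the shares were 0.471 ± 0.133% at 6 h against 1.36 ± 0.0555% at 0 h in the mutant, and 0.482 ± 0.179% against 1.34 ± 0.117% in the wild type. Every 6 h library lay below every 0 h library of its strain and assay. By 6 h the median RNA level per kilobase was 35.4 CPM in both strains, below the all-feature medians of 42.6 CPM in the mutant and 42.3 CPM in the wild type, and 23 of the 53 genes remained above them in each strain.

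**Figure D2:**
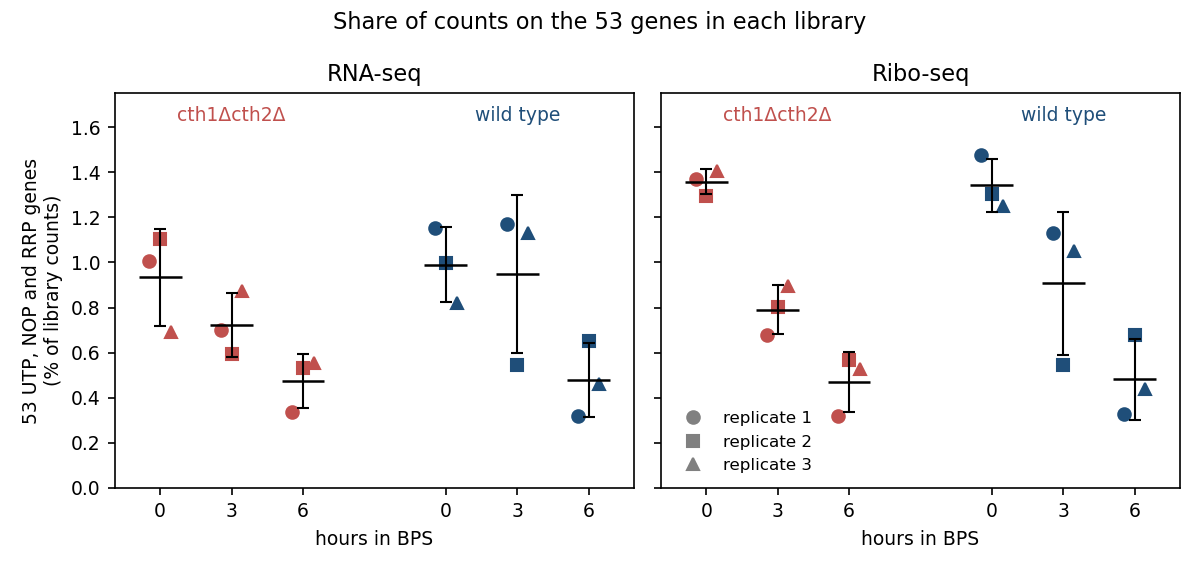
Percent of each library's counts that fell on the 53 genes (y axis) by hours in BPS (x axis), mutant left and wild type right in each panel. Marker shape gives the replicate, bars the mean and SD of 3. All 6 h libraries lie between 0.319 and 0.678%, and the wild-type 3 h culture of replicate 2, at 0.546% in RNA-seq and 0.544% in Ribo-seq, sits away from the others.

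In edgeR's quasi-likelihood F-test, with p-values adjusted over all features by the method of Benjamini and Hochberg, 35 of the 53 mRNAs fell at 6 h against 0 h in the mutant, where 20.9% of all features were called lower, and 35 in the wild type, where 16.7% were. None rose. Their median log2 fold changes were -1.44 and -1.45, against 0.01 and 0.03 for all features tested. Of the genes called in RNA in either strain (38), 32 were called in both. Over all features the share called in both cannot exceed the 16.7% called in the wild type. Footprints of 45 genes fell in the mutant (24.5% of all features) and of 49 in the wild type (24.3%), again with no rise, at median log2 fold changes of -1.66 and -1.36, against 0.07 and 0.09. In the mutant 32 mRNAs and 47 footprint levels had no overlap between the 6 h and the 0 h libraries, against 22.3% and 29.0% of features, and in the wild type 37 and 50 did, against 22.6% and 28.0%.

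In all 4 of these comparisons, 30 of the genes fell. They are all 6 UtpA genes, all 4 UtpB genes, all 5 snoRNP genes, UTP22, NOP13, 9 of the small-subunit path and 4 of the large-subunit path, and no exosome gene is among them. Of the features tested in RNA-seq, at most the 16.7% called in wild-type RNA can be called in all 4. Several of the 30 genes lost a call when 1 library was left out, as given below. NOP8 and RRP43 fell in none. At 6 h the fitted change of all 53 genes was negative in both assays and strains, but when RNA-seq was scaled by total counts it was negative for 42 mRNAs in the mutant and 49 in the wild type. Ribosomal protein mRNAs, which are the most abundant of the cell, made up 8.71 to 12.4% of RNA-seq counts at 6 h, against 24.9 to 36.8% at 0 h, and how much of the scaling difference this accounts for was not tested. With total counts the all-feature median moved to 0.71 in the mutant and 0.62 in the wild type, the median of the 53 mRNAs to -0.76 and -0.86, and the number called lower to 19 and 18. The wild-type RNA count was also 22 without the 2 shallow 6 h libraries, and 23 when either 0 h replicate 1 or 6 h replicate 3 was left out.

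**Figure D3:**
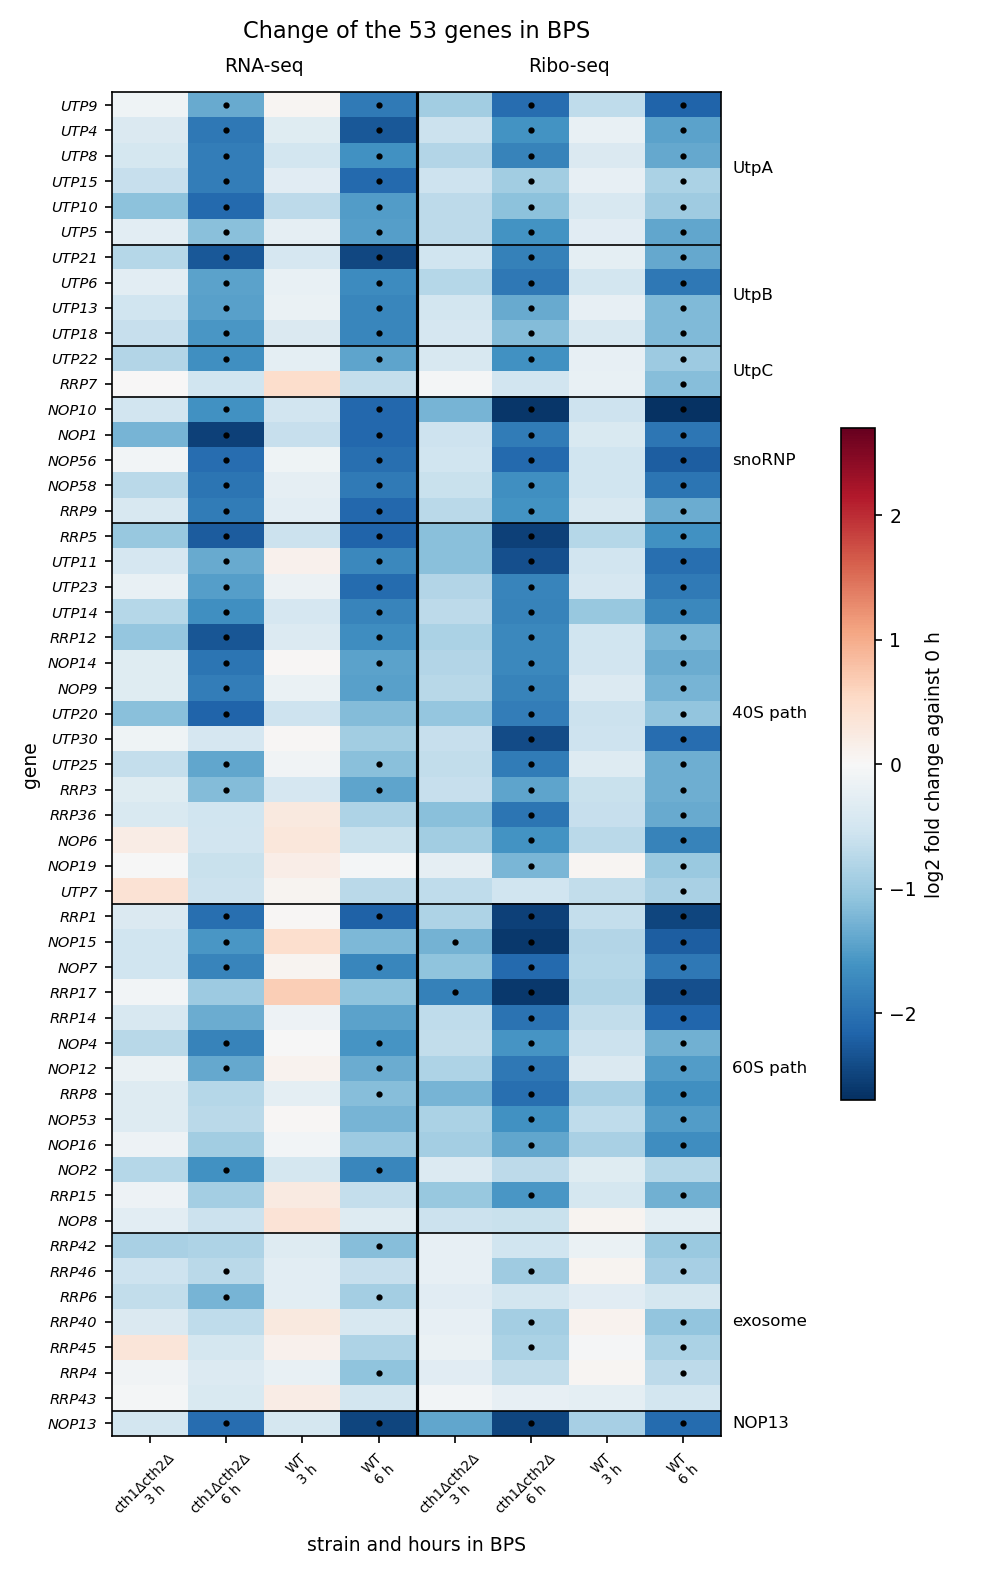
Log2 fold change against 0 h (colour) of each of the 53 genes (rows, grouped by role) after 3 and 6 h in BPS, in RNA-seq (left) and Ribo-seq (right), mutant columns before wild-type columns. A black dot marks an adjusted p under 0.05. The 6 h columns are blue throughout, with 35, 35, 45 and 49 dots, and the 3 h columns are pale with 2 dots, both in mutant footprints.

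The snoRNP proteins fell in both assays and strains, 5 of 5 genes each time. Median log2 fold changes were -1.96 in mutant and -2.11 in wild-type RNA, and -1.89 and -1.98 in footprints. NOP56, a core protein of the box C/D particles that direct ribose methylation, had 89.2, 174 and 84.1 RNA CPM at 6 h in the mutant, against 636, 548 and 251 CPM at 0 h. The wild type had 96.4, 213 and 94.7 CPM at 6 h, against 912, 444 and 295 CPM at 0 h. Neither pair of groups overlapped, although the 0 h values of each strain differed severalfold among themselves, with replicate 3 lowest. The log2 fold changes were -2.05 ± 0.46 (SE, adjusted p = 0.0013) and -2.04 ± 0.47 (adjusted p = 0.00173). Its footprints were tighter, at 169, 327 and 194 CPM at 6 h against 1059.8, 1022 and 861 CPM at 0 h in the mutant. Wild-type footprints were 197, 308 and 170.1 CPM at 6 h and 1201, 945 and 1017 CPM at 0 h, a log2 fold change of -2.23 ± 0.32 (adjusted p = 3.73e-05).

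NOP58, the partner of NOP56 in the same particles, and NOP1 fell too. NOP58 RNA was at 96.8, 245 and 132 CPM at 6 h in the mutant, against 544, 776 and 530.4 CPM at 0 h, and its log2 fold change was -1.96 ± 0.38 in the mutant and -1.91 ± 0.38 in the wild type. NOP1 RNA was at 96.8, 283 and 139 CPM at 6 h in the mutant, against 782, 635 and 1517 CPM at 0 h. For NOP1 the 6 h levels in the wild type were 171, 249.7 and 131 CPM, against 770.3, 598 and 983 CPM at 0 h. The mutant change, -2.52 ± 0.44, was the largest fall of any of the 53 mRNAs in that strain. RRP9, which belongs to the U3 snoRNP that base-pairs with the precursor at the start of processing, fell as well, with 27.6, 38.5 and 32.3 CPM at 6 h against 120.2, 105 and 130.3 CPM at 0 h in the mutant. Its log2 fold changes were -1.88 in mutant and -2.11 in wild-type RNA.

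NOP10 had the steepest fall in footprints of any of the 53 genes in both strains. Footprints numbered 22.9, 53.8 and 10.1 CPM at 6 h in the mutant, against 162, 189.6 and 217 CPM at 0 h. Only 7 reads stand behind the 10.1 CPM. Wild-type footprints numbered 41.6, 26.8 and 19.4 CPM at 6 h, against 163, 208 and 182 CPM at 0 h. The log2 fold changes were -2.63 ± 0.48 (adjusted p = 0.000305) and -2.67 ± 0.48 (adjusted p = 0.000276). The rank of NOP10 is not resolved, since NOP15 and RRP17 in the mutant and RRP1 in the wild type, given below, lay within its SE. NOP10 RNA was at 235, 260.4 and 232 CPM at 6 h against 1039, 536 and 670.0 CPM at 0 h in the mutant, and at 185, 246 and 304 CPM against 1116, 994 and 1142 CPM in the wild type, with log2 fold changes of -1.63 and -2.12.

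The genes placed in UtpA, the complex that first binds the nascent precursor, and in UtpB, which joins it with the U3 snoRNP, all fell. Only genes with a UTP, NOP or RRP name were taken, and the complexes themselves were not measured. All 6 UtpA genes fell in RNA, at medians of -1.87 in the mutant and -1.77 in the wild type, and all 6 in footprints, at -1.62 and -1.39. All 4 UtpB genes fell too, at -1.53 and -1.75 in RNA and -1.59 and -1.29 in footprints. Some of these calls rest on single libraries: UTP5 and UTP9 in mutant RNA, UTP5 in wild-type RNA, and UTP15 of UtpA and UTP18 of UtpB in footprints of both strains no longer passed in at least 2 of the 6 fits that left out 1 library, the fits without 0 h replicate 1 and without 6 h replicate 1 being among them each time. UTP21, a WD-repeat protein of UtpB, had the lowest adjusted p of these 10 genes in RNA of both strains. It stood at 49.3, 71.9 and 67.2 CPM at 6 h in the mutant, against 337, 234 and 330.5 CPM at 0 h. Wild-type UTP21 RNA was at 37.1, 79.6 and 51.7 CPM at 6 h, against 336, 314 and 292 CPM at 0 h. UTP21 changed by -2.28 ± 0.36 (adjusted p = 5.1e-05) and -2.46 ± 0.39 (adjusted p = 3.95e-05), with no overlap of libraries.

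Within UtpA, UTP4 had the largest fall in wild-type RNA, -2.29 ± 0.46, with 14.8, 61.5 and 51.4 CPM at 6 h against 263, 289 and 146 CPM at 0 h. Only 2 reads stand behind the 14.8 CPM of 6 h replicate 1. In mutant RNA, UTP4 changed by -1.93 and UTP8 by -1.88. UTP8, which has been described as taking part in tRNA export as well, had 25.5, 65.8 and 51.4 RNA CPM at 6 h against 179.8, 129 and 198 CPM at 0 h in the mutant, and 59.3, 101 and 53.4 CPM against 213, 164 and 259 CPM in the wild type, without overlap. UTP10, a large HEAT-repeat protein, had log2 fold changes of -2.09 in RNA and -1.11 in footprints in the mutant, and of -1.51 in RNA and -0.96 in footprints in the wild type. The wild-type 6 h levels of UTP10 RNA, 81.6, 358 and 130.1 CPM, spread widely below the 0 h levels of 516, 549.8 and 570.4 CPM. That call was lost without 6 h replicate 1 or replicate 3, and the wild-type footprint call (adjusted p = 0.0298) was lost in 5 of the 6 fits that left out 1 library, all but the one without 6 h replicate 2. In mutant footprints it was lost without 6 h replicate 1.

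Of the 2 genes placed in UtpC here, UTP22 fell in all 4 comparisons. Its footprints were at 84.7, 83.6 and 113 CPM at 6 h against 311, 268 and 284 CPM at 0 h in the mutant. Wild-type UTP22 footprints were at 96.3, 174 and 137 CPM, against 312, 255 and 242 CPM. Its footprint log2 fold changes were -1.63 ± 0.25 and -0.99 ± 0.24, and its wild-type RNA call was lost without 6 h replicate 3. RRP7, which binds UTP22 and whose promoter window holds RRPE without a PAC core, changed by -0.53 ± 0.52 in mutant RNA (adjusted p = 0.439) and -0.64 ± 0.54 in wild-type RNA (adjusted p = 0.383), and neither passed the threshold. Of its 4 comparisons RRP7 passed in wild-type footprints, with a log2 fold change of -1.15 (adjusted p = 0.00653).

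Among the other 15 genes of the small-subunit path, 10 mRNAs fell in the mutant and 9 in the wild type, while footprints fell for 14 and for all 15. Median log2 fold changes were -1.40 and -1.43 in RNA and -1.80 and -1.34 in footprints. The range over the 15 ran from -2.31 to -0.44 in mutant and from -2.16 to -0.05 in wild-type RNA, and from -2.51 to -0.55 and from -2.05 to -0.87 in footprints. RRP5, a very large RNA-binding protein needed for both subunits, fell in all 4. Its footprints were at 163, 296 and 346 CPM at 6 h in the mutant, against 1629.9, 1360.4 and 1587 CPM at 0 h. Wild-type RRP5 footprints were at 200.4, 471 and 476 CPM at 6 h, against 1367, 1068 and 1153 CPM at 0 h. The groups lay far apart, at log2 fold changes of -2.51 ± 0.38 (adjusted p = 7.1e-05) and -1.64 ± 0.37 (adjusted p = 0.00154). In RNA, RRP5 changed by -2.25 ± 0.47 in the mutant and by -2.16 ± 0.48 in the wild type.

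RRP12, a HEAT-repeat protein that escorts pre-ribosomes out of the nucleus, fell in mutant RNA to 42.5, 92.2 and 78.9 CPM at 6 h, against 349, 548 and 186 CPM at 0 h, a log2 fold change of -2.31 ± 0.50. In wild-type RNA its change of -1.67 ± 0.51 (adjusted p = 0.0134) was lost without 0 h replicate 1, 6 h replicate 1 or 6 h replicate 3. UTP30, NOP6, NOP19 and RRP36 belong to 11 genes whose footprints fell in both strains while their mRNAs passed the test in neither. The others are RRP14, RRP15, RRP17, NOP16 and NOP53 of the large-subunit path and the exosome genes RRP40 and RRP45. The share of all features with this pattern is not given here. In translational efficiency, the test of the difference between assays, none of the 11 passed in either strain in edgeR's test without a block. On simulated counts the RNA test found 9% of 2-fold changes and the footprint test 21%. UTP30, related to a ribosomal protein of the large subunit, had 7.69, 8.80 and 5.75 footprint CPM at 6 h in the mutant, against 37.6, 38.9 and 46.7 CPM at 0 h. Its mutant RNA levels overlapped, with 19.5, 27.4 and 21.4 CPM at 6 h and 40.8, 18.5 and 26.6 CPM at 0 h. The footprint change was -2.41 ± 0.36 (adjusted p = 6.94e-05) and the RNA change -0.44 ± 0.42 (adjusted p = 0.422).

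NOP19 is a small protein that joins the 90S particle. It had 51.9, 43.4 and 30.1 RNA CPM at 6 h in the wild type, against 55.8, 38.6 and 21.5 CPM at 0 h, and these values overlap. Its RNA log2 fold change there was -0.05 ± 0.52 (adjusted p = 0.957), a value whose sign turned under several settings. Its footprints, 9.63, 17.4 and 10.9 CPM at 6 h against 26.4, 24.4 and 26.7 CPM at 0 h, did not overlap and changed by -1.01 ± 0.23 (adjusted p = 0.00208). UTP20, a giant HEAT-repeat protein of the 90S particle, fell in mutant RNA, with a log2 fold change of -2.17 ± 0.47 (adjusted p = 0.00102), and missed the threshold in wild-type RNA, at -1.16 ± 0.47 (adjusted p = 0.0567). Its mutant RNA was at 65.4, 127 and 111 CPM at 6 h, against 336, 783 and 270.3 CPM at 0 h. Wild-type UTP20 RNA was at 104, 297 and 129.9 CPM at 6 h, against 417, 482 and 301 CPM at 0 h, with 6 h replicate 2 well above the other 6 h libraries. Without that library the gene passed, and it also passed with the replicate as a block, at -1.23 ± 0.46 (adjusted p = 0.0402). UTP7, a component of the 90S particle, passed the test in 1 of the 4 comparisons, wild-type footprints (log2 fold change -0.87, adjusted p = 0.0489), and that call was lost in 5 of the 6 fits without 1 library, all but the one without 6 h replicate 2.

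Of the 13 genes of the large-subunit path, footprints of 11 fell in each strain, at medians of -1.93 in the mutant and -1.65 in the wild type, and 6 mRNAs fell in each strain, at -1.34 and -1.25. All 13 RNA changes were negative in both strains, and in translational efficiency, the test of the difference between assays, none of the 13 passed without a block. The range over the 13 ran from -2.60 to -0.61 in mutant and from -2.48 to -0.27 in wild-type footprints. RRP1, a nucleolar protein of early pre-60S particles, fell in all 4 comparisons, with 46.7, 42.5 and 52.9 RNA CPM at 6 h against 282, 209.5 and 99.8 CPM at 0 h in the mutant. Its wild-type RNA was at 14.8, 57.9 and 57.9 CPM at 6 h, the lowest of them from 2 reads, against 283, 222 and 160.0 CPM at 0 h. Mutant footprints of RRP1 numbered 18.9, 24.7 and 31.6 CPM at 6 h and 129, 127 and 159.8 CPM at 0 h. RRP1 changed by -2.03 ± 0.42 in mutant and -2.18 ± 0.45 in wild-type RNA, and by -2.52 ± 0.44 in mutant and -2.48 ± 0.43 in wild-type footprints. NOP7, the yeast pescadillo protein, fell too, with log2 fold changes of -1.77 in mutant and -1.75 in wild-type RNA. Its RNA was at 93.8, 196 and 196 CPM at 6 h in the mutant and 111, 213 and 177 CPM in the wild type. The 0 h RNA levels were uneven, 722, 752 and 204 CPM in the mutant and 877, 627 and 223 CPM in the wild type, and the wild-type call was lost without 0 h replicate 1.

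NOP15, an RNA-binding protein of early pre-60S particles, had one of the steepest footprint falls. Its footprints were at 36.8, 67.5 and 44.5 CPM at 6 h in the mutant, against 289, 299.7 and 315 CPM at 0 h. Wild-type NOP15 footprints were at 43.3, 77.7 and 51.8 CPM at 6 h, against 297, 273 and 244 CPM at 0 h, and in neither strain did the groups come near each other. The NOP15 footprint changes were -2.60 ± 0.35 (adjusted p = 2.89e-05) and -2.23 ± 0.34 (adjusted p = 7.52e-05). NOP15 RNA overlapped between times in both strains, with 0 h replicate 3 low: the mutant 0 h values were 183, 197 and 50.5 CPM and the wild-type ones 163, 174 and 57.2 CPM. Its RNA call in the mutant (-1.56 ± 0.51, adjusted p = 0.0187) was lost without 0 h replicate 1, 0 h replicate 2 or 6 h replicate 1, and in the wild type RNA changed by -1.22 ± 0.54 (adjusted p = 0.0801), a call gained when 0 h replicate 3 was left out.

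NOP2, a cytosine methyltransferase of the large-subunit rRNA, fell in RNA, and its footprints did not pass the test. Its mRNA fell to 63.3, 179 and 112 CPM at 6 h in the mutant, against 389, 364 and 336 CPM at 0 h, and to 51.9, 159 and 124 CPM in the wild type, against 413, 367 and 393 CPM. Its footprints were at 90.5, 189 and 185 CPM at 6 h and 231, 239 and 283 CPM at 0 h in the mutant, without overlap. Wild-type NOP2 footprints, 92.3, 237 and 174 CPM at 6 h and 344, 205 and 305 CPM at 0 h, overlapped. The RNA log2 fold changes were -1.63 ± 0.41 and -1.75 ± 0.42, and the footprint changes -0.71 ± 0.35 (adjusted p = 0.105) and -0.76 ± 0.35 (adjusted p = 0.0779), the wild-type footprint call being gained without 6 h replicate 2. The difference between the assays did not pass either, with adjusted p = 0.453 in the mutant and 0.597 in the wild type in edgeR's test without a block. NOP2 and the exosome nuclease RRP6 were the 2 genes called in RNA and not in footprints, the same in both strains.

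NOP8 carries both promoter elements and works on pre-60S particles, but it did not pass the test in any of the 4 comparisons. It had 17.1, 47.0 and 34.5 footprint CPM at 6 h in the mutant, against 44.98, 48.3 and 55.1 CPM at 0 h. The wild type had 22.3, 54.7 and 35.8 CPM at 6 h and 49.6, 43.6 and 44.4 CPM at 0 h, and replicate 2 at 6 h exceeded all 0 h values. The footprint log2 fold changes were -0.61 ± 0.38 (adjusted p = 0.189) and -0.27 ± 0.37 (adjusted p = 0.556). RRP17 was measured by few reads, at 1.16, 5.38 and 1.44 footprint CPM at 6 h in the mutant against 12.02, 18.6 and 20.5 CPM at 0 h, and its footprints fell, with log2 fold changes of -2.60 ± 0.54 in the mutant and -2.38 ± 0.51 in the wild type. RRP8, which methylates an adenine of the large-subunit rRNA, was at 20.3, 57.0 and 40.2 footprint CPM at 6 h in the mutant, against 146, 142 and 190.5 CPM at 0 h, a change of -2.04 ± 0.43 (adjusted p = 0.00108). Its mutant RNA, 70.9, 86.1 and 103 CPM at 6 h and 189.7, 142 and 110.4 CPM at 0 h, changed by -0.76 ± 0.32 (adjusted p = 0.0642), short of the threshold, while wild-type RNA fell, with a log2 fold change of -1.15 (adjusted p = 0.0106) that did not pass without 0 h replicate 1. RRP17 RNA overlapped between times and did not pass the test in either strain.

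The 7 exosome genes had median log2 fold changes of -0.68 in mutant and -0.84 in wild-type RNA and of -0.66 in mutant and -0.85 in wild-type footprints, each nearer 0 than the median of the 53 genes. Of the 7, 2 mRNAs fell in the mutant, where 20.9% of all features did, and 3 in the wild type (16.7%). Footprints of 3 fell in the mutant (24.5%) and of 5 in the wild type (24.3%). RRP43, a subunit of the exosome ring, did not pass the test in any comparison. Its footprints were at 48.0, 57.7 and 33.0 CPM at 6 h in the mutant, against 47.7, 49.9 and 66.4 CPM at 0 h. Wild-type RRP43 footprints were at 49.5, 64.1 and 37.5 CPM at 6 h and 87.6, 55.8 and 70.4 CPM at 0 h, and both pairs of groups overlap. The changes were -0.22 ± 0.26 (adjusted p = 0.494) and -0.50 ± 0.26 (adjusted p = 0.111), the wild-type call being gained without 6 h replicate 2. RRP40, which with RRP4 forms part of the RNA-binding cap, fell in footprints of both strains, with log2 fold changes of -0.92 in the mutant (adjusted p = 0.00886) and -1.07 in the wild type (adjusted p = 0.00303), and did not pass in RNA of either. Its footprints were at 23.4, 36.9 and 18.7 CPM at 6 h in the mutant, against 55.8, 49.9 and 48.6 CPM at 0 h, and at 31.1, 34.1 and 17.7 CPM in the wild type, against 58.1, 56.7 and 59.5 CPM, with no overlap in either strain. RRP46, another ring subunit, fell in footprints of both strains and in mutant RNA (log2 fold change -0.73, adjusted p = 0.0399), and RRP42 in wild-type RNA (-1.15, adjusted p = 0.0216) and wild-type footprints (-1.01, adjusted p = 0.0169). The RRP46 call in mutant RNA was lost whichever library was left out, and that in wild-type footprints without 6 h replicate 3. The RRP42 calls were lost in RNA without 0 h replicate 1 or 3 or 6 h replicate 2 or 3, and in footprints without replicate 3 of 0 h or 6 h. The RRP45 footprint calls were lost in the mutant without 0 h replicate 3 or 6 h replicate 1 and in the wild type without 0 h replicate 3. The lowest value of the 7 exosome genes over the 4 comparisons was -1.26, for RRP6 in mutant RNA.

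RRP6, the nuclear 3′ exonuclease that works with the exosome, was called lower in RNA of both strains and not in footprints. RRP6 RNA was at 47.1, 70.9 and 49.9 CPM at 6 h in the mutant, against 114, 148 and 140.0 CPM at 0 h, a log2 fold change of -1.26 ± 0.32 (adjusted p = 0.00353). In the wild type it was at 74.2, 79.6 and 64.8 CPM at 6 h, against 141, 106 and 148 CPM at 0 h, without overlap. That wild-type change of -0.91 ± 0.33 (adjusted p = 0.0369) was lost when any single library other than 0 h replicate 2 was left out. RRP4 fell in wild-type RNA and footprints, with log2 fold changes of -1.08 and -0.71 (adjusted p = 0.0232 and 0.045), and each call was lost in several fits that left out 1 library: in RNA those without 0 h replicate 1 or 2 or 6 h replicate 2 or 3, in footprints all but the one without 6 h replicate 2. In the mutant RRP4 did not pass in either assay, although its footprint call was gained without 6 h replicate 2.

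NOP13, a nucleolar RNA-binding protein placed in none of these groups, had the largest fall of the 53 mRNAs in the wild type. It stood at 14.8, 61.5 and 36.9 CPM at 6 h, against 239.8, 275 and 161 CPM at 0 h, a log2 fold change of -2.48 ± 0.50 (adjusted p = 0.000492). The first 2 of these 6 h values stand for 2 and 17 reads, so its rank rests on few reads. In the mutant the RNA was at 26.3, 64.8 and 45.4 CPM at 6 h, against 267, 154 and 134 CPM at 0 h, a change of -2.06 ± 0.46. Its promoter window holds a full PAC element and an RRPE element.

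**Figure D4:**
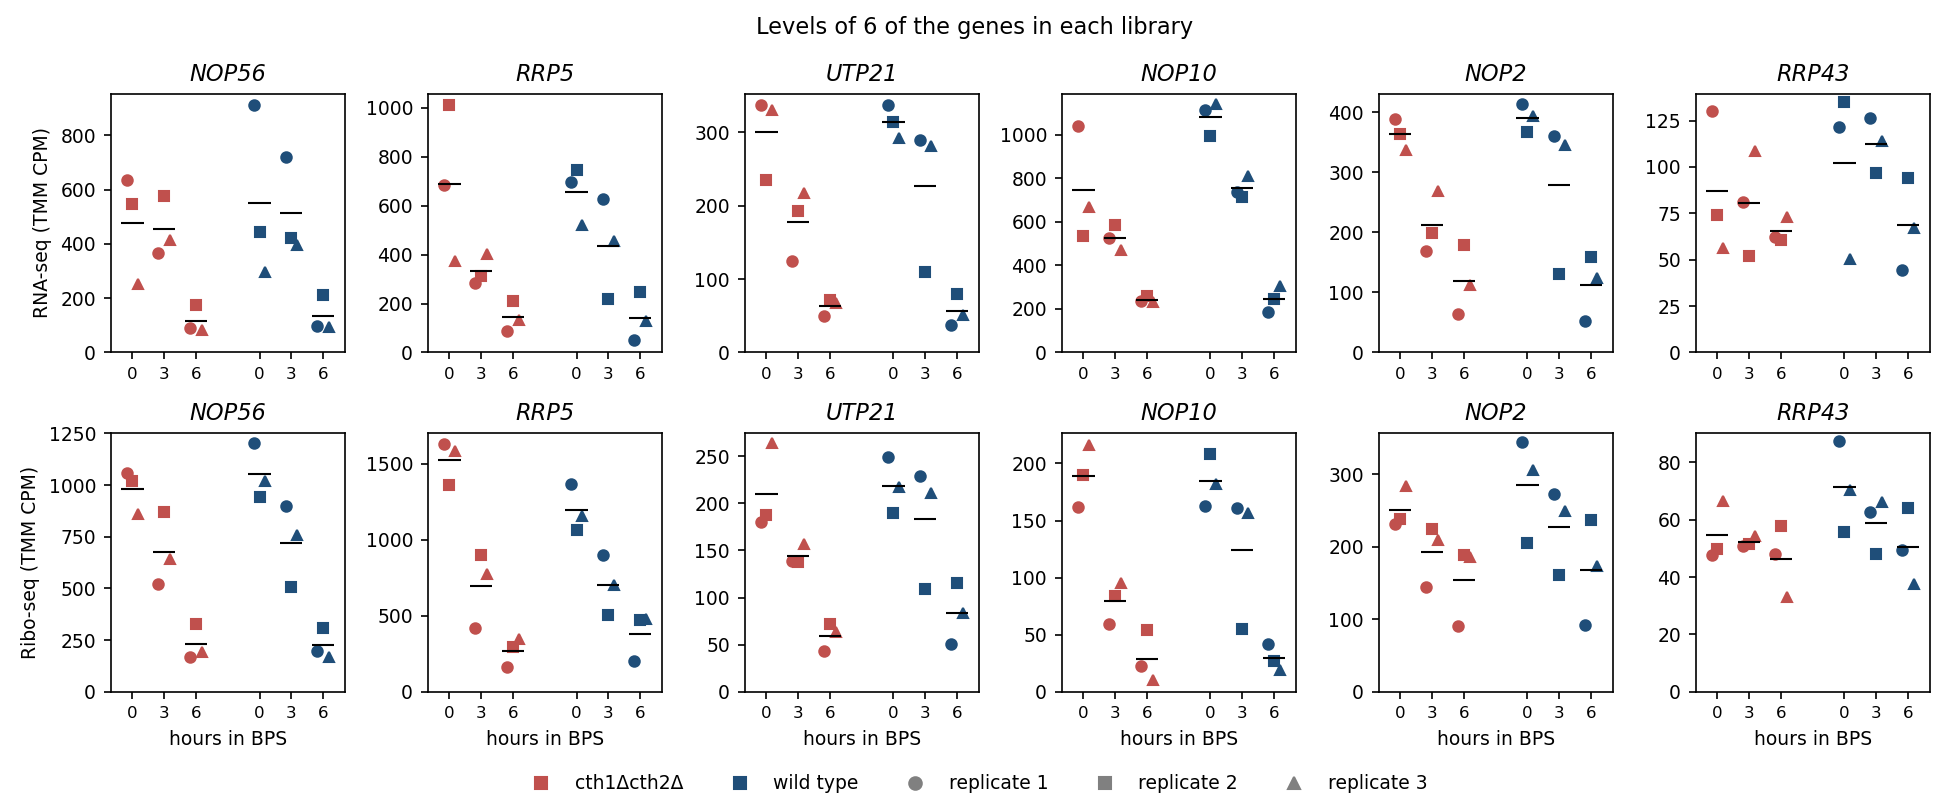
Level of 6 of the genes in each library, in CPM with TMM scaling (linear y axes from 0), by hours in BPS, RNA-seq above and Ribo-seq below, mutant in red left of wild type in blue. Marker shape gives the replicate and bars the group mean. NOP56, RRP5, UTP21 and NOP10 drop at 6 h in both assays, NOP2 drops in RNA, and the times overlap for NOP2 in wild-type footprints and for RRP43.

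At 3 h the picture was weaker. In RNA none of the 53 genes passed the test against 0 h in either strain, where 1.02% of features in the mutant and 1.48% in the wild type were called lower, although 8 in the mutant and 0 in the wild type had an unadjusted p under 0.05, and DESeq2 called 1 and 0. Median RNA changes were -0.40 in the mutant and -0.18 in the wild type, against -0.03 and 0.03 for all features. Footprints changed by a median of -0.70 in the mutant, where all 53 changes were negative, and by -0.47 in the wild type, where 48 were. By role the mutant footprint medians at 3 h were -0.86 for the large-subunit path, -0.79 for the small-subunit path, -0.71 for UtpA, -0.61 for the snoRNP proteins, -0.52 for UtpB and -0.21 for the exosome. Wild-type footprint medians were -0.66, -0.57, -0.36, -0.54, -0.34 and -0.03 over the same 6 groups. NOP15 and RRP17 passed the test in mutant footprints, where 0.828% of features were called lower, and none of the 53 did in the wild type (1.81%), where 8 had an unadjusted p under 0.05 and DESeq2 called none. NOP15 had 120.3, 96.6 and 158 footprint CPM at 3 h in the mutant, against 289, 299.7 and 315 CPM at 0 h, a log2 fold change of -1.27 ± 0.33 (adjusted p = 0.042). RRP17 had 4.65, 3.33 and 6.37 CPM at 3 h, against 12.02, 18.6 and 20.5 CPM at 0 h, a change of -1.83 ± 0.47 (adjusted p = 0.0413). DESeq2 called 7 genes in mutant footprints and a fit restricted to the 2 groups at issue called 17. Both calls, NOP15 and RRP17, were lost without any one of the mutant 0 h libraries or without 3 h replicate 1 or 2. With the replicate as a block NOP13 passed as well, at -1.42 ± 0.39 (adjusted p = 0.0424), against 0.0506 without it. Libraries did not overlap for 43 of the 53 in mutant footprints (16.3% of features). In wild-type footprints they also did not overlap for part of the genes, UTP14, NOP13, NOP16 and RRP8 among them, and overlapped for others, NOP1 among them. Without the wild-type 3 h culture of replicate 2, the wild-type median was 0.11 in RNA, turning its sign, and -0.19 in footprints, and still no gene passed. That culture was singled out by the low levels of these genes, so its removal raises these medians by construction.

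Between 3 and 6 h the fall deepened. RNA of 17 genes fell at 6 h against 3 h in the mutant (10.3% of features) and of 26 in the wild type (11.2%), and footprints of 25 (17.7%) and 32 (18.6%). Median log2 fold changes were -0.94 and -1.29 in RNA and -0.90 and -0.95 in footprints, against 0.02 in RNA and 0.06 in footprints for all features in both strains. NOP56 fell in each of the 4, and its RNA was at 368, 577 and 414 CPM at 3 h in the mutant and 721, 422 and 397 CPM in the wild type. With the replicate as a block the mutant counts were 18 in RNA and 28 in footprints. Mutant RNA gave 4 genes with total counts, 9 with thinned libraries and 28 in a fit of only the groups compared, and mutant footprints 12 with total counts. Wild-type RNA gave 15 with total counts, 16 with thinned libraries and 10 without the 2 shallow 6 h libraries, and wild-type footprints 20 with thinned libraries and 12 in a fit of only the groups compared. These counts also rest on few libraries. Leaving out 1 library took the mutant RNA count to between 4 and 13, lowest without 3 h replicate 3 and at 5 without 6 h replicate 1, and at 10 without 3 h replicate 1 or 6 h replicate 3. The wild-type RNA count became 39 without the low 3 h replicate 2, 12 without 6 h replicate 3, 14 without 3 h replicate 3, 15 without 3 h replicate 1 and 17 without 6 h replicate 1. Mutant footprints gave 9 without 6 h replicate 1 and 12 without 3 h replicate 3, and wild-type footprints 17 without 3 h replicate 1 and 19 without 3 h or 6 h replicate 3.

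No difference between the strains passed the test for any of the 53 genes. In RNA at 0, 3 and 6 h, the median log2 differences of mutant over wild type were -0.09, -0.39 and -0.02, against 0.04, -0.04 and -0.07 for all features, with 0, 1 and 0 genes at an unadjusted p under 0.05, while 0.0167, 0.45 and 0.783% of all features were called in either direction. In footprints the medians were 0.04, -0.23 and -0.10, against 0.02, -0.04 and -0.10, with 0, 0 and 1 at an unadjusted p under 0.05 and 0.0188, 0.865 and 6.27% of all features called. DESeq2 called none of the 53 either. At 3 h the difference was negative for 51 mRNAs and 50 footprint levels. Without the low wild-type culture of replicate 2 its median was -0.67 in RNA and -0.54 in footprints, against all-feature medians near 0, and again no gene passed. That culture was singled out by the low levels of these same genes, so its removal widens the difference by construction. The typical standard error was 0.41 to 0.44 in RNA and 0.34 to 0.35 in footprints, and strain differences well above that size could also be missed. On counts simulated for the wild type at 6 h against 0 h, the RNA test found 9% of 2-fold and 59% of 4-fold changes. The footprint test found 21% and 76%.

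No difference between the strains in their response passed the interaction test either. Mutant minus wild-type response had a median of 0.11 in RNA and -0.16 in footprints at 6 h, against -0.09 and -0.10 for all features, and of -0.30 and -0.29 at 3 h (-0.58 and -0.55 without that culture), with none of the 53 genes called and none at an unadjusted p under 0.05. DESeq2 also called none. The 3 h values without that culture are wider by construction, since it was singled out by the low levels of the 53 genes. Of all features, 0.0333% in RNA and 2.97% in footprints were called at 6 h, and 0.0167% and 0.282% at 3 h. UTP20 had the widest RNA value at 6 h, -1.005 ± 0.65 (SE, adjusted p = 0.767). In footprints it was RRP5, at -0.87 ± 0.51 (adjusted p = 0.473).

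Change of RNA and change of footprints were both negative for all 53 genes in each strain, against 39.9% of 5290 features in the mutant and 40.8% in the wild type. Across the 53 genes the 2 changes were only loosely related at 6 h, with Pearson's r of 0.45 in the mutant and 0.49 in the wild type, against 0.85 and 0.88 across all features. These are descriptions over genes that share libraries and span a narrower range of change than all features. The change in translational efficiency had a median of -0.25 in the mutant and -0.05 in the wild type at 6 h, and of -0.27 and -0.28 at 3 h, against all-feature medians of 0.11 and 0.10 at 6 h and 0.06 and 0.04 at 3 h. The wild-type 3 h median was -0.54 without the low RNA-seq library and -0.04 without the low Ribo-seq library, each singled out by the low levels of the 53 genes. In edgeR's test none of the 53 genes passed in any of these, while 1.68% and 0.284% of all features were called at 6 h and 0.0% and 0.0378% at 3 h, and the unadjusted p was under 0.05 for 2, 4, 1 and 0 genes. DESeq2 called UTP30 at 6 h in the mutant and none of the 53 in the other 3.

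RNA and footprints came from the same lysates, and with the lysate as a block 5 genes passed at 6 h, none of them in both strains. In each strain the share of the 53 genes called was close to the share of all features given below. These calls therefore do not set the 53 genes apart. NOP2 rose in translational efficiency in the mutant, by 0.95 ± 0.29 on the log2 scale (SE, adjusted p = 0.0443), while RRP8 changed by -1.43 ± 0.37 (adjusted p = 0.0226) and UTP30 by -2.04 ± 0.53 (adjusted p = 0.0231), against 7.6% of features called in either direction. UTP15 rose in the wild type by 1.14 ± 0.31 (adjusted p = 0.0403) and UTP21 by 1.09 ± 0.30 (adjusted p = 0.0449), against 3.04% of features. Without the block the UTP30 change was -1.97 ± 0.56 (adjusted p = 0.068), and those of NOP2, RRP8, UTP15 and UTP21 were 0.91, -1.29, 1.22 and 1.04 (adjusted p from 0.244 to 0.453). Scaled by total counts, also without the block, NOP2, UTP15 and UTP21 stood at 0.46, 0.74 and 0.56, and RRP8 and UTP30 at -1.79 and -2.49. The difference between strains in this response was called for no feature, with the block or without it (0.0%). Longer genes had the higher change in translational efficiency, given here as a description without a test, with Spearman's rho between coding length and change of 0.61 in the mutant and 0.73 in the wild type over the 53 genes, against 0.36 and 0.43 over all features.

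**Figure D5:**
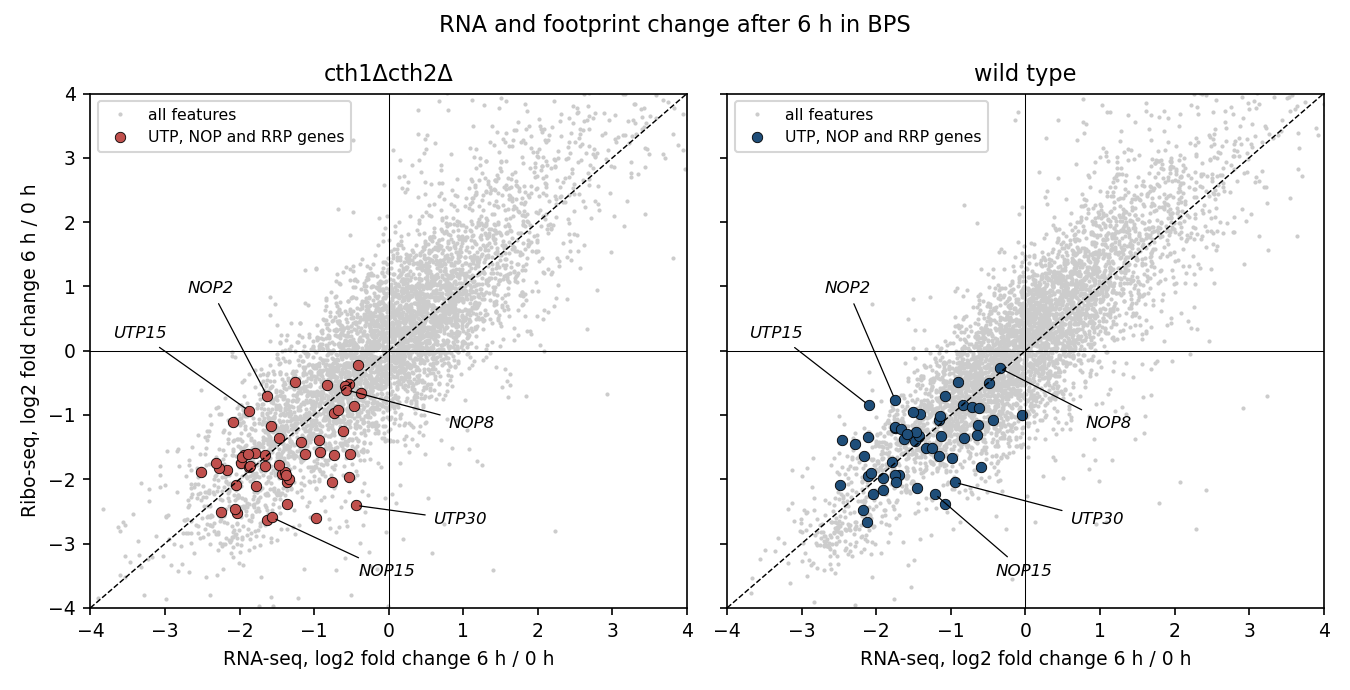
Log2 fold change of RNA (x axis) and of footprints (y axis) at 6 h against 0 h, for the 53 genes (large points) and all features (grey), mutant left and wild type right, with the line of equal change dashed. The 53 genes all lie in the lower left, where both changes are negative. UTP30 and NOP15 lie below the line, NOP2 and UTP15 above it, and 187 and 207 grey features lie beyond the axes at 4.

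Genes with an RRPE element had the lower median change in RNA. In the mutant the median RNA change at 6 h was -1.56 for the 39 genes with the element, 29 of them called, and -0.67 for the 14 without, 6 of them called. In the wild type the medians were -1.58, with 29 called, and -0.83, with 6 called. The PAC core divided the genes in the same direction, with medians of -1.48 for the 43 genes with it and -0.78 for the 10 without in the mutant, and of -1.51 and -1.05 in the wild type. The full PAC element divided the medians little. They were -1.44 for the 23 genes with it and -1.42 for the 30 without in the mutant, and -1.51 and -1.335 in the wild type. Called were 17 of the 23 and 18 of the 30 in the mutant, and 19 and 16 in the wild type. For the core, 30 of the 43 and 5 of the 10 were called in each strain. In footprints, 34 of the 39 genes with RRPE and 11 of the 14 without were called in the mutant, and 36 and 13 in the wild type. Role and element overlap, since 4 of the 7 exosome genes lack the core and 4 lack RRPE, and the 2 were not tested apart.

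AU-rich elements of the kind bound by the Cth1 and Cth2 family, TTATTTAT on the coding strand, were found within 300 bases after the stop codon of 6 of the 53 genes (11.3%), against 412 of 5983 genes (6.89%). They are NOP4, NOP14, RRP4, RRP6, RRP9 and UTP21. The sites of RRP4, NOP4 and RRP9 lie 192, 248 and 263 bases after the stop codon. Transcript ends were not used, so a site may lie outside the mRNA, and no site was tested for binding. The 3 sites nearest to the stop codon, 24, 61 and 89 bases after it, are shown with the element in capitals, in build R64.
RRP6: gtatttttTTATTTATaaattatg
NOP14: caactgtaTTATTTATgaaaaaga
UTP21: accaagaaTTATTTATtgggtttg
They lie at chrXV:329049-329072 (plus strand), chrIV:188078-188101 (minus strand) and chrXII:934310-934333 (minus strand). In the wild type all 6 mRNAs fell at 6 h, at a median of -1.51, against 29 of the 47 without the element at -1.45. The wild-type calls of NOP4 and NOP14 were each lost without replicate 1 or 2 of 0 h or replicate 1 or 3 of 6 h, beside those of RRP4 and RRP6 given above. With the replicate as a block NOP14 was no longer called either (adjusted p = 0.0508). In the mutant, which lacks both proteins, 5 of the 6 fell, at a median of -1.84, against 30 of 47 at -1.40. In footprints the order of the medians was the other one: -1.60 with the element (4 of 6 called) against -1.75 without it (41 of 47) in the mutant, and -1.315 (5 of 6) against -1.40 (44 of 47) in the wild type. The mRNA that did not pass in the mutant was that of RRP4, at -0.38 ± 0.34 in mutant and -1.08 ± 0.36 in wild-type RNA, and its difference in response between strains was 0.70 ± 0.49 (SE, adjusted p = 0.788).

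Other ribosome-making genes, in lists chosen with earlier results of these data known, moved with the 53. Genes named from the lists are among those with the largest changes in wild-type RNA. For comparison, 20.9% of all features were called lower in RNA at 6 h in the mutant and 16.7% in the wild type. Of 38 further small-subunit factors, 28 mRNAs fell at 6 h in the mutant and 29 in the wild type, at medians of -1.51 and -1.60. Of 46 further large-subunit factors, 40 and 39 fell, at -1.67 and -1.70. NIP7, a pre-60S factor, was at 52.8 ± 12.3 CPM at 6 h and 305.6 ± 96.0 at 0 h in the mutant, and at 62.7 ± 19.3 and 417.8 ± 82.4 in the wild type (SD, n = 3 each). All 4 further snoRNP proteins fell in both strains, SNU13 among them with log2 fold changes of -2.65 in the mutant and -2.97 in the wild type. Of 9 exosome partners 4 and 5 fell. MTR4, the helicase that feeds RNA to the exosome, was the clearest, at -2.18 ± 0.42 in the mutant (SE, adjusted p = 0.000315) and -2.39 ± 0.44 in the wild type (adjusted p = 0.000192). All 7 RNA polymerase I subunits named RPA fell in both strains, at medians of -2.144 and -1.997. Cytosolic ribosomal protein mRNAs fell for 128 and 129 of 130 genes tested, at -2.04 and -2.42.

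Of 5 regulators of the regulon listed, RNA of 1 rose and of 2 fell at 6 h in the mutant, where 20.9% of all features fell. RNA of 2 rose in the wild type. The share of all features called higher is not given here, so the rises are not set against it. DOT6, a repressor that binds PAC, rose in RNA at 6 h, with 222.8 ± 80.9 CPM against 86.9 ± 33.2 CPM at 0 h in the mutant and 199.4 ± 45.7 CPM against 56.4 ± 6.87 CPM in the wild type (SD, n = 3 each). Its log2 fold changes were 1.33 ± 0.33 (SE, adjusted p = 0.00289) and 1.88 ± 0.34 (adjusted p = 0.000188). STB3, a repressor that binds RRPE, rose in wild-type RNA by 1.23 ± 0.38 (adjusted p = 0.0133) and changed by 0.62 ± 0.36 in the mutant (adjusted p = 0.18). The kinase gene SCH9 and the DOT6 paralogue TOD6 fell in mutant RNA, with log2 fold changes of -1.62 and -1.36, and in the wild type changed by -0.62 ± 0.47 and -0.84 ± 0.52 (adjusted p = 0.326 and 0.219). SFP1, an activator of the regulon, changed in RNA by -0.06 ± 0.34 in the mutant (adjusted p = 0.915) and 0.78 ± 0.36 in the wild type (adjusted p = 0.0941), while its footprints rose, by 0.66 ± 0.26 (adjusted p = 0.0403) and 1.04 ± 0.26 (adjusted p = 0.00303). Mutant minus wild-type response in RNA was -0.55 ± 0.47 for DOT6, -0.61 ± 0.52 for STB3, -0.996 ± 0.64 for SCH9, -0.52 ± 0.71 for TOD6 and -0.83 ± 0.49 for SFP1, and none of the 5 passed the test (adjusted p from 0.737 to 0.922).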

How the data were processed

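Per the labels' protocols, cells were filtered and flash frozen, and aliquots of each lysate gave RNase I footprints from the 80S peak of a sucrose gradient and hydrolysed poly(A) RNA. The authors deposited 1 table per sample of raw read counts per feature with coding lengths. The submitters' processing notes name cutadapt 3.4, Bowtie 1.1.2, STAR 2.7.9a and build R64. Their roles, the counting program, its strand setting and its handling of reads that match more than 1 place are not given in the sources used here.

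Counts were fitted per assay over 18 libraries and 6 groups with edgeR 4.0.16 (limma 3.58.1, R 4.3.3): TMM factors, filterByExpr with a minimum count of 10 (6006 features in RNA-seq, 5315 in Ribo-seq), quasi-likelihood F-tests and Benjamini-Hochberg adjustment within each comparison at 0.05. The SE is the log2 fold change divided by the root of F. Translational efficiency was tested on 5290 features as the interaction of assay and time over 36 libraries, and its levels used a pseudocount of 0.5 CPM. Levels per kb are CPM per kb of coding length. Medians over genes are of log2 fold changes.

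A count of 3 corresponded to 0.457 to 26.5 CPM in RNA-seq and to 0.105 to 4.93 CPM in Ribo-seq, which covers counting error only. Replicate libraries differed by more than sampling noise (chi-square per degree of freedom 3.88 to 228.2 over 36 pairs). On simulated counts the RNA test found 9% of 2-fold and 59% of 4-fold changes (n = 100 each), the Ribo-seq test 21% and 76%, and the translational efficiency test 2% and 45%, with 2, 3 and 5 false calls.

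Replicate numbers paired the lysates of both assays, since the protocols take both from the same lysate. Deviations from group means correlated by 0.341 on average between the assays (0.0259 to 0.703). Between strains and times every same-numbered pair correlated by more than 0.1 in 7 of 18 comparisons.

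The 53 genes, their roles, the gene lists and the promoter motifs were chosen with earlier results of these data known. Every one of the 53 genes may be named. Values per library, in at least 1 assay and strain, are given for NOP1, NOP56, NOP58, NOP10, RRP9, UTP8, UTP10, UTP22, RRP5, RRP12, NOP2, NOP7, RRP6 and RRP40, and for the 3 lowest and 3 highest log2 fold changes at 6 h per strain and assay, and of the other lists the 2 genes with the largest change in wild-type RNA. UTP7, RRP7, SCH9, TOD6, SFP1 and genes shown for a change of call were named after their values were seen. Sequences were read from the RefSeq genome of build R64. Python 3.11.15 with pandas 2.3.3 and matplotlib 3.10.9 made the tables and figures. Alternatives were DESeq2 1.42.0, other scalings, no filter, only the groups compared, thinned counts, the replicate as a block and each library left out.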

Additional observations from a re-analysis of the deposited data

How the results depend on the processing

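The counts of genes that fell kept within 1.5 times under RLE factors and without the filter on low counts in every comparison. With total counts the number was 19 in mutant and 18 in wild-type RNA at 6 h against 0 h, 4 in mutant and 15 in wild-type RNA at 6 h against 3 h, and 12 in mutant footprints at 6 h against 3 h, with 1 gene called in translational efficiency at 6 h in the mutant, and the wild-type median of log2 translational efficiency at 0 h was 0.355. Libraries thinned to the smallest gave 9 in mutant and 16 in wild-type RNA at 6 h against 3 h, 23 in wild-type RNA at 6 h against 0 h, 1 in mutant footprints at 3 h against 0 h and 20 in wild-type footprints at 6 h against 3 h. Without both shallow wild-type 6 h RNA libraries, chosen after seeing the data, the wild-type RNA counts were 22 at 6 h against 0 h and 10 at 6 h against 3 h. DESeq2 called 1 gene in mutant RNA and 7 in mutant footprints at 3 h, and 1 in mutant translational efficiency at 6 h. Fits of only the groups compared gave 28 in mutant RNA and 12 in wild-type footprints at 6 h against 3 h, and 17 in mutant footprints at 3 h. The cause of these shifts was not tested.

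With the replicate as a block no count over RNA or footprints moved by more than 1.5 times (3 against 2 genes in mutant footprints at 3 h), and with the lysate as a block 3 genes in the mutant and 2 in the wild type passed in translational efficiency at 6 h. The replicate block changed 12 calls of single genes: at 6 h against 0 h in wild-type RNA, NOP14 was no longer called (adjusted p = 0.0508) and UTP20 was (0.0402). At 6 h against 3 h it added RRP5 in mutant RNA, NOP4, NOP7 and UTP13 in mutant footprints, RRP12 and UTP8 in wild-type RNA, and RRP5, RRP15 and RRP42 in wild-type footprints, and at 3 h NOP13 in mutant footprints. Leaving out 1 library gave 25 to 37 genes in mutant and 23 to 37 in wild-type RNA at 6 h against 0 h, 41 to 46 in mutant and 42 to 51 in wild-type footprints, and 0 to 2 in mutant footprints at 3 h. At 6 h against 3 h it gave 4 to 13 in mutant and 12 to 39 in wild-type RNA, and 9 to 28 in mutant and 17 to 46 in wild-type footprints. Mutant translational efficiency at 6 h gave 0 to 1, and the other comparisons gave 0 throughout.

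For the named genes 1285 values kept their direction and call, 60 lost the call, 7 gained one and 26 changed sign, all 26 in RNA at 6 h against 0 h. With total counts the log2 fold changes that turned positive were NOP19 0.0444, NOP8 0.13, RRP4 0.29, RRP40 0.0461, RRP43 0.28, RRP7 0.14 and UTP30 0.27 in the mutant, and NOP19 0.55, NOP8 0.24, RRP40 0.15 and RRP43 0.10 in the wild type. Thinned counts gave RRP40 0.0369 and UTP30 1.17 in the mutant and NOP8 0.41, RRP40 0.23 and RRP6 0.0798 in the wild type. Wild-type NOP19 was 0.12 with DESeq2, 0.0584 with RLE factors and 0.0336 with the block, and ranged from -0.41 to 0.53 as libraries were left out. Over the fits without 1 library, mutant RRP4 ranged from -0.63 to 0.00801, RRP43 from -0.72 to 0.0722 and RRP7 from -1.03 to 0.15, and wild-type RRP17 from -1.81 to 0.32 and RRP7 from -1.06 to 0.15, the highest value each time being the one without 0 h replicate 1. RRP6 in the wild type was the only one of these called in the analysis as reported. Depth limits RNA values of rare genes, a count of 3 being worth 26.5 CPM in the shallowest RNA-seq library, wild-type 6 h replicate 1.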
